A study of Mus musculus with 4 samples.

Results

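The genes of MHC class I antigen presentation were followed in hippocampus RNA-Seq of mice with and without aromatase in forebrain neurons. The set was fixed by gene symbol and holds 10 of the 22609 symbols counted: the heavy chains H2-D1, H2-K1 and H2-T23, the light chain B2m, the peptide transport and loading genes Tap1, Tap2 and Tapbp, and the proteasome genes Psmb8, Psmb9 and Psme1. FLOX+GCI (2 libraries) came from control mice, and FBN-ARO-KO+GCI (2 libraries) from mice in which Cyp19a1, the gene for aromatase, was removed by Cre under the CaMKIIα promoter, which is active in excitatory neurons of the forebrain only. All mice were females of 3 to 5 months, ovariectomized 1 week before surgery, and all underwent 20 min of global cerebral ischemia (GCI, clips on both common carotid arteries) and 24 h of reperfusion. No sham libraries were analysed here, so each value compares genotypes after ischemia. The labels do not say whether the libraries of a group came from separate mice, so that the p-values measure the spread between these samples, which may be technical.

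Class I molecules carry peptides from inside the cell to its surface, where CD8+ T cells and natural killer cells read them. The immunoproteasome and its activator cut proteins into peptides, the TAP transporter moves the peptides into the endoplasmic reticulum, and tapasin holds an empty heavy chain and its light chain, β2-microglobulin, at the transporter until a peptide binds. Interferons induce most of these genes together. In the brain, class I transcripts are found in endothelial cells, microglia and some neurons, and several are listed among the transcripts of reactive astrocytes.

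The stretch just before the start of a heavy chain gene and that of the light chain gene are shown because these genes are known to be controlled together, while here H2-K1 was lower in both knockout libraries and B2m overlapped between the groups. The H2-K1 difference was small without FLOX+GCI replicate 1 (log2 fold change -0.06). Corrected for GC content and length, the log2 fold changes of H2-K1 and B2m were -0.33 and -0.17. Each stretch is 250 bases upstream of a RefSeq start (table of GRCm38.p6) and was placed on the mouse build mm9 by an exact match. H2-K1 was placed at chr17:34137279-34137528 on the minus strand and B2m at chr2:121973173-121973422 on the plus strand. Capitals mark matches on either strand to AANNGAAA (letters of interferon-response elements), to the NF-kB consensus, to TGACG (the core of a CREB site) and to CCAAT (the NF-Y box). In H2-K1, 2 matches to the NF-kB consensus overlap.
H2-K1: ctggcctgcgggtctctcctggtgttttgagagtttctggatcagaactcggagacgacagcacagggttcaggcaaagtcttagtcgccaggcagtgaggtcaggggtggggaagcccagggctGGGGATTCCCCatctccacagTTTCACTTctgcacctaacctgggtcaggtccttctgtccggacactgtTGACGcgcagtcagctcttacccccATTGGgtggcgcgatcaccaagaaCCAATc
B2m: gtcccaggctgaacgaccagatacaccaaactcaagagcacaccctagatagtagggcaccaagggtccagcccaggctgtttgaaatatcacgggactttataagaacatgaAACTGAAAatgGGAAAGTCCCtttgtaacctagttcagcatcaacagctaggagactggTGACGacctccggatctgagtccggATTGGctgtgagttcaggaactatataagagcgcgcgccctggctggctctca

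Both windows held AANNGAAA, the NF-kB consensus and TGACG within 40 bases of CCAAT. Over all 32851 windows of the same table, from 250 bases before to 50 bases after a start, 23.9% held AANNGAAA, 8.46% the NF-kB consensus, 20.8% TGACG, 37.4% CCAAT and 3.64% the last pair within 40 bases. AANNGAAA was also present in H2-T23, and in Psme1 after the start. The H2-D1 window matched that of H2-K1 at 172 of 191 aligned bases and held the same motifs. Tap1 and Psmb9 are read in opposite directions and overlap by 212 bases in the annotation, while their RefSeq starts have 225 bases between them. Their windows are largely the same stretch and hold the same TGACG and CCAAT, which lay farther apart. Tapbp had CCAAT alone, and Psmb8 had none of these motifs. No window was available for Tap2, so it was not examined. A match is a description of the letters and not a measured binding site.

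Each gene was compared between FBN-ARO-KO+GCI and FLOX+GCI in CPM (counts scaled by library size, with TMM factors). All 10 genes had a lower mean in FBN-ARO-KO+GCI, where 51.3% of the 14527 genes tested were lower. None passed an adjusted p of 0.05 in edgeR's quasi-likelihood test, with adjusted p-values between 0.248 and 0.877; 0.0138% of the genes tested passed it. DESeq2 gave an adjusted p to 1 of the 10, B2m (0.872), and left it blank for the other 9. Of the 10 genes, 4 had an unadjusted p under 0.05 and were lower (7.82% of the genes tested), and DESeq2 gave 3 (5.38% of the genes tested). Both FBN-ARO-KO+GCI libraries lay below both FLOX+GCI libraries for 8 of the 10 genes, against 25.8% of the genes tested. The median log2 fold change of the 10 genes was -0.45, and that of all genes tested was -0.01.

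The level of these genes was not alike within FLOX+GCI. FLOX+GCI replicate 1 had the highest value of the 4 libraries for 9 of the 10 genes, and FBN-ARO-KO+GCI replicate 2 the lowest for 8. On the log2 scale, the difference of the group mean CPM was larger than the gap between the FLOX+GCI libraries for 6 genes. It was larger than the gap between the FBN-ARO-KO+GCI libraries for 9. The median log2 ratio of FLOX+GCI replicate 1 to replicate 2 was 0.43 over the 10 genes and near 0 over all genes tested, of which 49.6% were higher in replicate 1. Without FLOX+GCI replicate 1, the median log2 fold change of the 10 genes was -0.21, and 1 gene had an unadjusted p under 0.05 (7.27% of the genes tested, lower). Without FLOX+GCI replicate 2 it was -0.62, with 9 such genes (6.99% of the genes tested).

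**Figure D1:**
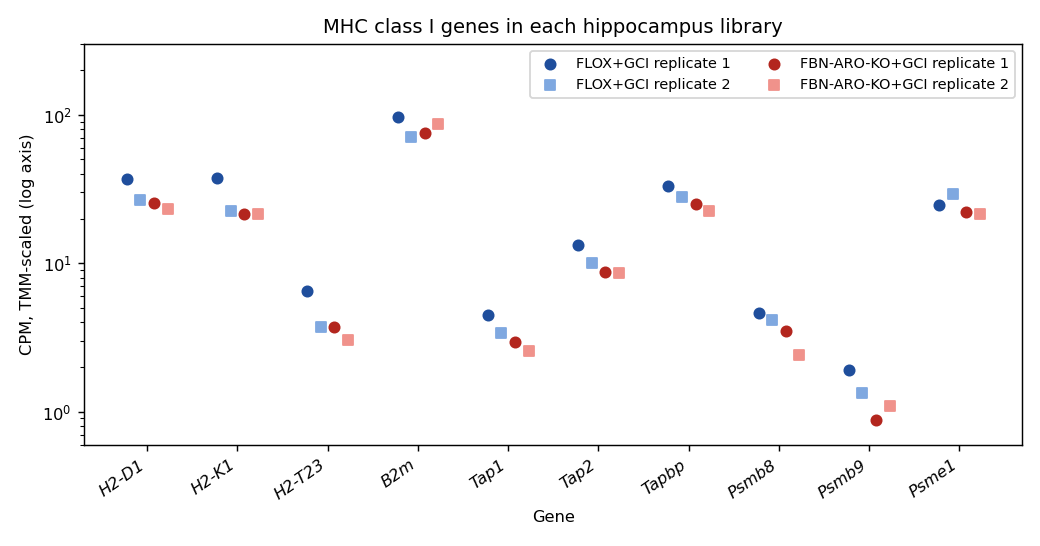
CPM of the 10 genes on a log axis, with 1 point for each library (blue, FLOX+GCI; red, FBN-ARO-KO+GCI; circles, replicate 1; squares, replicate 2). The dark blue point of FLOX+GCI replicate 1 is the highest of the 4 for 9 genes, and the groups overlap for H2-T23 and B2m.

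Expression of the heavy chains, which hold the peptide, was examined first. H2-D1, a classical heavy chain, measured 36.8 and 26.9 CPM in FLOX+GCI replicates 1 and 2, and 25.5 and 23.04 CPM in FBN-ARO-KO+GCI replicates 1 and 2. Both FBN-ARO-KO+GCI values were below both FLOX+GCI values, the upper one by little. The mean was 31.8 ± 7.03 CPM in FLOX+GCI and 24.3 ± 1.71 in FBN-ARO-KO+GCI (SD, n = 2 each), and the fitted difference was -0.39 on the log2 scale (SE 0.16, unadjusted p = 0.039, adjusted p = 0.280 by edgeR), and -0.14 without FLOX+GCI replicate 1 or -0.60 without FLOX+GCI replicate 2. H2-K1, the other classical heavy chain listed, measured 37.4 and 22.4 CPM in FLOX+GCI, and 21.4 and 21.3 CPM in FBN-ARO-KO+GCI. One FLOX+GCI library stood far above the other 3, which lay close together. Its log2 fold change was -0.49 (SE 0.22, adjusted p = 0.314 by edgeR), and -0.06 without FLOX+GCI replicate 1. Without FLOX+GCI replicate 2 it was -0.81 with an adjusted p of 0.0164, the only gene of the 10 to pass in any fit that left out 1 library; 0.496% of the genes tested passed in that fit. H2-T23, the nonclassical heavy chain Qa-1 that natural killer receptors recognize, measured 6.47 and 3.69 CPM in FLOX+GCI, and 3.71 and 3.04 CPM in FBN-ARO-KO+GCI. Its groups overlapped, and its log2 fold change of -0.59 (SE 0.29, adjusted p = 0.350 by edgeR) was -0.12 without FLOX+GCI replicate 1 and -0.94 without FLOX+GCI replicate 2.

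The heavy chains are near copies of one another, and the counting left out reads with more than 1 place in the genome. The counter of such reads held 35.1% to 36.5% of the sum of gene counts and counters in a library. A read with several places may enter that counter more than once, so the share of reads was not known. For the 50-base reads used, 14.3% of the start positions in the longest H2-D1 transcript, 8.87% in H2-K1 and 31.1% in H2-T23 gave a shared sequence. Shared means found in a coding transcript of another gene, or more than once on chromosome 17 of mm9. The rest of the genome was not searched. The shares for relatives not in the set reached 50.6% in H2-Q7 and 98.4% in H2-T9, and both were listed at 0 counts in every library. Relatives with small shares were also at 0 in every library, such as H2-M9 (0.0929%) and H2-T3 (1.28%). H2-T10 (40.7%) and H2-T22 (44.7%) had counts in every library. The counts of 22 class I heavy chain genes were also added up, which does not bring back the reads left out. The sum was 89.2 and 57.7 CPM in FLOX+GCI, and 55.1 and 52.0 CPM in FBN-ARO-KO+GCI. The fitted log2 fold change was -0.46 (SE 0.18, adjusted p = 0.281 by edgeR), close to those of H2-D1 and H2-K1, which made up most of it.

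B2m, the light chain, measured 97.3 and 71.1 CPM in FLOX+GCI, and 75.2 and 87.2 CPM in FBN-ARO-KO+GCI. The groups overlapped, with an FBN-ARO-KO+GCI library in second place. The means were 84.2 ± 18.5 and 81.2 ± 8.51 CPM (SD, n = 2 each), with a log2 fold change of -0.05 (SE 0.15, adjusted p = 0.877 by edgeR), and its sign turned to 0.20 without FLOX+GCI replicate 1 and to 0.05 without FBN-ARO-KO+GCI replicate 1. The heavy chains were then set against the light chain within each library, a ratio chosen after the values were seen. The sum of H2-D1, H2-K1 and H2-T23 made up 83.0% and 74.4% of the B2m CPM in FLOX+GCI, against 67.2% and 54.4% in FBN-ARO-KO+GCI. The difference in the log2 ratio was -0.38 (exact permutation test, two-sided p = 0.333, the smallest that 2 against 2 libraries allow). It was -0.22 without FBN-ARO-KO+GCI replicate 2. Corrected for GC content and length it was -0.12, and the groups then overlapped.

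Tap1 and Tap2, the subunits of the peptide transporter, followed one pattern. Tap1 measured 4.51 and 3.41 CPM in FLOX+GCI, and 2.93 and 2.56 CPM in FBN-ARO-KO+GCI, without overlap. Its log2 fold change was -0.53 (SE 0.23, adjusted p = 0.314 by edgeR), and -0.30 without FLOX+GCI replicate 1. Tap2 measured 13.2 and 10.02 CPM in FLOX+GCI, and 8.69 and 8.64 CPM in FBN-ARO-KO+GCI. The FBN-ARO-KO+GCI libraries were nearly equal and below both controls, with a log2 fold change of -0.42 (SE 0.17, unadjusted p = 0.039, adjusted p = 0.280 by edgeR), which was -0.20 without FLOX+GCI replicate 1. Tapbp, which encodes tapasin, had the smallest p of the 10 genes. It measured 33.0 and 27.7 CPM in FLOX+GCI, and 24.9 and 22.4 CPM in FBN-ARO-KO+GCI, again without overlap. Its log2 fold change was -0.36 (SE 0.12, unadjusted p = 0.020, adjusted p = 0.248 by edgeR) and lay between -0.48 without FLOX+GCI replicate 2 and -0.22 without FLOX+GCI replicate 1.

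Psmb8 and Psmb9 encode catalytic subunits that take the place of Psmb5 and Psmb6 in the immunoproteasome. Psmb8 measured 4.59 and 4.14 CPM in FLOX+GCI, and 3.50 and 2.42 CPM in FBN-ARO-KO+GCI. The groups did not overlap, and its log2 fold change was -0.55 (SE 0.24, adjusted p = 0.309 by edgeR). It was -0.32 without FBN-ARO-KO+GCI replicate 2 and -0.85 without FBN-ARO-KO+GCI replicate 1. Psmb9 was the lowest of the 10 genes, with 48 and 33 counts in the controls against 29 and 32 in the knockouts, or 1.92, 1.34, 0.875 and 1.09 CPM. It also had the largest difference of the 10, -0.73 on the log2 scale, with the largest error (SE 0.34, adjusted p = 0.325 by edgeR), and was -0.44 without FLOX+GCI replicate 1. Psme1, a subunit of the PA28 activator that opens the proteasome, measured 24.7 and 29.5 CPM in FLOX+GCI, and 22.2 and 21.4 CPM in FBN-ARO-KO+GCI. It was the single gene of the 10 with its highest value in FLOX+GCI replicate 2. Its log2 fold change was -0.31 (SE 0.12, unadjusted p = 0.032, adjusted p = 0.269 by edgeR). It was -0.43 without FLOX+GCI replicate 1 and -0.19 without FLOX+GCI replicate 2. Without FLOX+GCI replicate 1, each of the other 9 genes was nearer to 0 than in its own fit of all libraries, or above 0. Psmb8 (-0.47) and Psmb9 (-0.44) were still farther from 0 than Psme1 there.

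**Figure D2:**
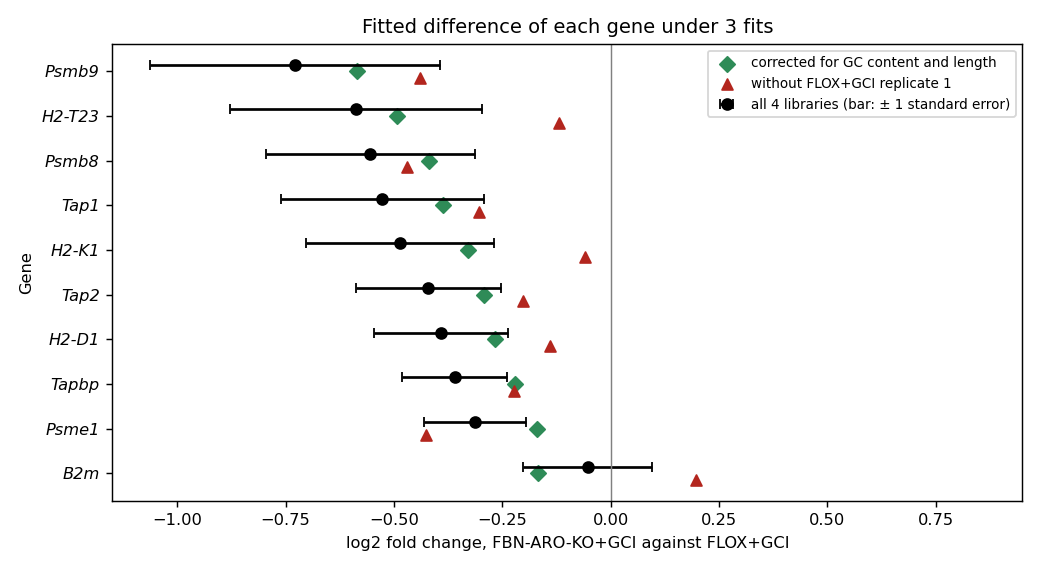
Fitted log2 fold change of FBN-ARO-KO+GCI against FLOX+GCI for the 10 genes, ordered by the fit of all 4 libraries (black, with ± 1 standard error), with the fit corrected for GC content and length (green) and the fit without FLOX+GCI replicate 1 (red). All black and green points lie below 0, and B2m lies above 0 without FLOX+GCI replicate 1.

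The immunoproteasome subunits were also set against the constitutive subunits whose place they take, in CPM per kb of the longest coding transcript. Psmb8 stood at 6.59% and 6.36% of Psmb5 in FLOX+GCI, and at 5.56% and 4.17% in FBN-ARO-KO+GCI. Psmb9 stood at 1.16% and 0.733% of Psmb6 in FLOX+GCI, against 0.522% and 0.697% in FBN-ARO-KO+GCI. Psmb10, the catalytic subunit not in the set, stood at 26.6% and 22.8% of Psmb7 in FLOX+GCI, and at 18.7% and 17.9% in FBN-ARO-KO+GCI. All 3 ratios were lower in both FBN-ARO-KO+GCI libraries than in either control, by -0.43, -0.61 and -0.43 on the log2 scale. Each had an exact two-sided permutation p of 0.333, the smallest that 2 against 2 libraries allow, also after adjustment over the 3 ratios. With a library left out, the Psmb9 to Psmb6 difference was -0.28 without FLOX+GCI replicate 1 and -0.94 without FLOX+GCI replicate 2, and the Psmb8 to Psmb5 difference was -0.22 without FBN-ARO-KO+GCI replicate 2. Corrected for GC content and length, the differences were -0.48, -0.65 and -0.27, and the libraries still did not overlap. The 14 constitutive subunits of the 20S core centered on a log2 fold change of -0.11. At an unadjusted p under 0.05 there were 0 in either direction (16.5% of the genes tested).

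**Figure D3:**
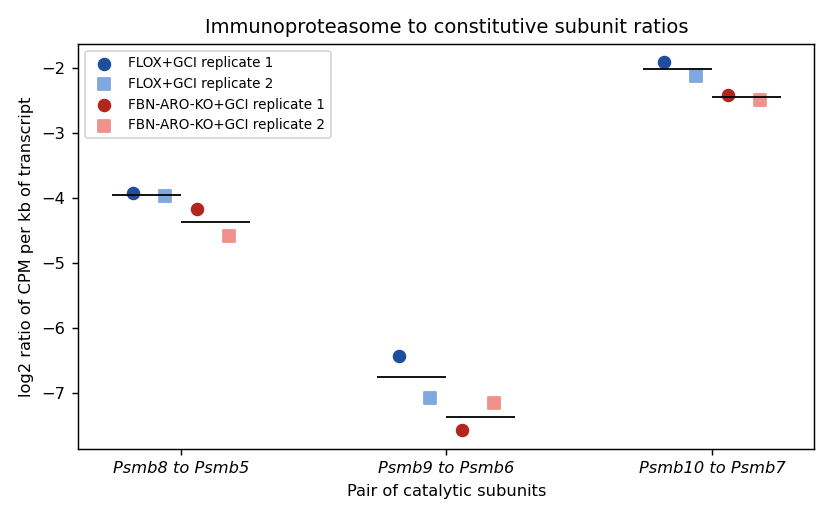
log2 ratio, in each library, of an immunoproteasome subunit to the constitutive subunit it replaces, from CPM per kb of transcript (blue, FLOX+GCI; red, FBN-ARO-KO+GCI; lines, group means of 2 libraries). In the 3 pairs both red points lie below both blue points.

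Per kb of transcript, averaged over the 4 libraries, the level was highest for B2m (96.1 CPM per kb), followed by Psme1 (21.99), H2-K1 (16.0), H2-D1 (13.3), Tapbp (9.34), Tap2 (2.94), H2-T23 (2.87), Psmb8 (2.25), Tap1 (1.13) and Psmb9 (0.966). Over the 4 libraries together, the range of B2m lay above that of Psme1, and the range of Tapbp above that of Tap2. The ranges of all other neighbors in this order overlapped. Within every library, though, H2-K1 was above H2-D1, H2-D1 above Tapbp, Psmb8 above Tap1 and Tap1 above Psmb9. In CPM without the division by length, H2-D1 was above H2-K1 in every library except FLOX+GCI replicate 1. The values per kb were not corrected for sequence shared between genes. Counts in a library ran from 29 for Psmb9 to 2554 for B2m.

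Base composition moved with the comparison. Across 14004 genes the log2 fold change and the GC content of the transcript correlated at a Spearman rho of -0.55, a description across genes of the same 4 libraries. The 9 genes other than B2m had 53.9% to 57.3% GC, above the median of 50.6% of the genes tested, and B2m had 41.2%. The 2422 other genes in the GC range of the 9 had a median log2 fold change of -0.11, and 42.1% of them were lower without overlap, as were 8 of the 9. After correction for GC content and length, all 10 genes were still lower (50.8% of the genes tested), with a median of -0.31, between -0.59 for Psmb9 and -0.17 for B2m. None then had an unadjusted p under 0.05 in edgeR (4.61% of the genes tested did, lower), with unadjusted p-values between 0.0845 and 0.230, and 6 genes did not overlap (21.4% of the genes tested, lower).

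The 8 genes on chromosome 17 lie in the MHC region, between 34052844 and 36169800 of mm9, with B2m on chromosome 2 and Psme1 on chromosome 14. The other 85 genes tested in this stretch had log2 fold changes centered on a median of -0.17, with 72 of them lower (51.3% of all genes tested). At an unadjusted p under 0.05 there were 12, all lower (7.82% of all genes tested, lower). The 85 genes had a median GC content of 56.9%, and after the correction their median log2 fold change was -0.01. With the correction 1 gene was lower at an unadjusted p under 0.05 (4.61% of all genes tested). The 8 genes of the set had a median of -0.51, and of -0.36 after the correction. In the annotation used here, Tap1 and Psmb9 overlap on opposite strands, and so do B2m and Patl2. H2-T23, Tap2 and Psmb8 also overlap other genes on the opposite strand, and Tapbp overlaps Zbtb22 on the same strand. Where genes overlap on opposite strands, their reads can be told apart only by strand. The sources used here do not say whether strand was used in counting.

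The partners that load and trim peptides went in both directions. Of 13 tested, 7 were lower and 6 higher, and the median log2 fold change was -0.00. Psmb10 measured 31.2 and 31.2 CPM in FLOX+GCI, and 21.2 and 21.7 CPM in FBN-ARO-KO+GCI, with almost no spread within either group. Its log2 fold change was -0.54 (SE 0.095, unadjusted p = 0.00068, adjusted p = 0.238 by edgeR), and -0.36 corrected for GC content and length. The 6 higher genes all had an unadjusted p under 0.05 (8.72% of the genes tested, higher), and none passed the adjusted p in edgeR. They included Hspa5 (log2 fold change 0.41), Pdia3 (0.26) and Calr (0.26), chaperones that fold many proteins of the endoplasmic reticulum, and Lnpep (0.48), an aminopeptidase of endosomes. In DESeq2, Hspa5 (adjusted p = 0.0041) and Lnpep (adjusted p = 0.040) passed. With the correction 4 of the 6 kept an unadjusted p under 0.05 in edgeR (5.38% of the genes tested, higher).

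Among the other class I heavy chains and class I-like genes, 8 of 24 in the files were tested and 9 were listed at 0 in every library. Of the 8, 7 were lower and 1 higher, with a median log2 fold change of -0.35, which turned to 0.05 without FLOX+GCI replicate 1 and was -0.65 without FLOX+GCI replicate 2. Hfe, a class I-like regulator of iron uptake, had the smallest p of these, with 5.59 and 3.98 CPM in FLOX+GCI against 2.93 and 2.90 CPM in FBN-ARO-KO+GCI (log2 fold change -0.71, SE 0.23, adjusted p = 0.248 by edgeR). Fcgrt, the neonatal Fc receptor and the most abundant of them, had a log2 fold change of -0.33 and overlapped between groups. The MHC class II genes tested numbered 9, of which 8 were lower, with a median of -0.49, or -0.20 without FLOX+GCI replicate 1. At an unadjusted p under 0.05 there were 0 in either direction (16.5% of the genes tested). The most abundant, Ctss, a protease of endosomes, had a log2 fold change of -0.03.

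Of the genes that regulate class I transcription, 18 were tested, 9 lower and 9 higher, with a median log2 fold change of -0.02. Creb1 (log2 fold change 0.37) and Jak2 (0.24) were higher and the interferon receptor chain Ifnar2 (-0.32) lower at an unadjusted p under 0.05, and none passed the adjusted p in edgeR. Jak1, the most abundant, had a log2 fold change of 0.08. Nlrc5, the transactivator of class I genes, was near the limit of the data, with 20, 13, 16 and 16 counts in the 4 libraries. Ifng and Ifnb1, the genes of interferon γ and β, were at 0 in all 4 libraries. A count of 0 allows up to 3 counts, or 0.0907 to 0.123 CPM, in counting error alone. Receptors that read class I on lymphocytes and myeloid cells summed to 7 and 19 counts in FLOX+GCI libraries, against 10 and 12 in FBN-ARO-KO+GCI libraries, and none could be tested.

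Genes that interferons induce, listed apart from the class I set, were lower in 20 of 21 tested, with a median log2 fold change of -0.57. At an unadjusted p under 0.05, 10 were lower (7.82% of the genes tested) and 0 higher (8.72% of the genes tested). The groups did not overlap for 16, all lower (25.8% of the genes tested, lower). Xaf1 passed the adjusted test, at 10.3 and 11.3 CPM in FLOX+GCI and 2.41 and 2.32 CPM in FBN-ARO-KO+GCI (log2 fold change -2.19, SE 0.17, adjusted p = 0.022 by edgeR). It lost the call without FBN-ARO-KO+GCI replicate 1 (adjusted p = 0.0947) or replicate 2 (0.329), at log2 fold changes of -2.21 and -2.16. Gbp3 (-1.10), Gbp2 (-0.89) and Irgm1 (-0.51), interferon-induced GTPases, followed with adjusted p-values between 0.238 and 0.248 in edgeR. The list had a median of -0.41 without FLOX+GCI replicate 1 and of -0.69 after correction for GC content and length. With that correction 12 were lower at an unadjusted p under 0.05 (4.61% of the genes tested). The medians of the class I set in the same fits were -0.21 and -0.31.

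Markers of the cells that could carry class I RNA were read in the same libraries. In bulk tissue, fewer cells of a type and less RNA per cell cannot be told apart. The 15 endothelial markers, all tested, summed to 620 and 484 CPM in FLOX+GCI, and to 526 and 414 CPM in FBN-ARO-KO+GCI. FLOX+GCI replicate 1 was highest and FBN-ARO-KO+GCI replicate 2 lowest, as for most class I genes, while the groups overlapped. The 12 markers of mural cells and fibroblasts summed to 468 and 304 CPM in FLOX+GCI, and to 351 and 223 CPM in FBN-ARO-KO+GCI, with the same library at each end. Their medians of log2 fold change were -0.30 and -0.46, and -0.07 and -0.05 without FLOX+GCI replicate 1. They were -0.46 and -0.65 without FLOX+GCI replicate 2, -0.52 and -0.78 without FBN-ARO-KO+GCI replicate 1, and -0.12 and -0.10 without FBN-ARO-KO+GCI replicate 2. The part of these vascular markers in the class I values was not tested.

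Microglial markers did not follow the class I genes. The 15 summed to 616 and 602 CPM in FLOX+GCI, and to 591 and 646 CPM in FBN-ARO-KO+GCI, with a median log2 fold change of -0.00. Astrocyte markers summed to 6334, 6421, 6607 and 7210 CPM in the same order, with a median of 0.07, and neuron markers summed to 12635 to 13612 CPM and had a median of 0.04. Oligodendrocyte and choroid plexus markers had medians of 0.04 and 0.05, and those of the choroid plexus summed to 66.8 and 54.2 CPM in FLOX+GCI and to 47.0 and 53.9 CPM in FBN-ARO-KO+GCI. Blood leukocyte markers summed to between 4.70 and 5.41 CPM, 2 of 14 could be tested, and the T cell genes Cd3e and Cd8a had at most 4 and 2 counts in a library.

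**Figure D4:**
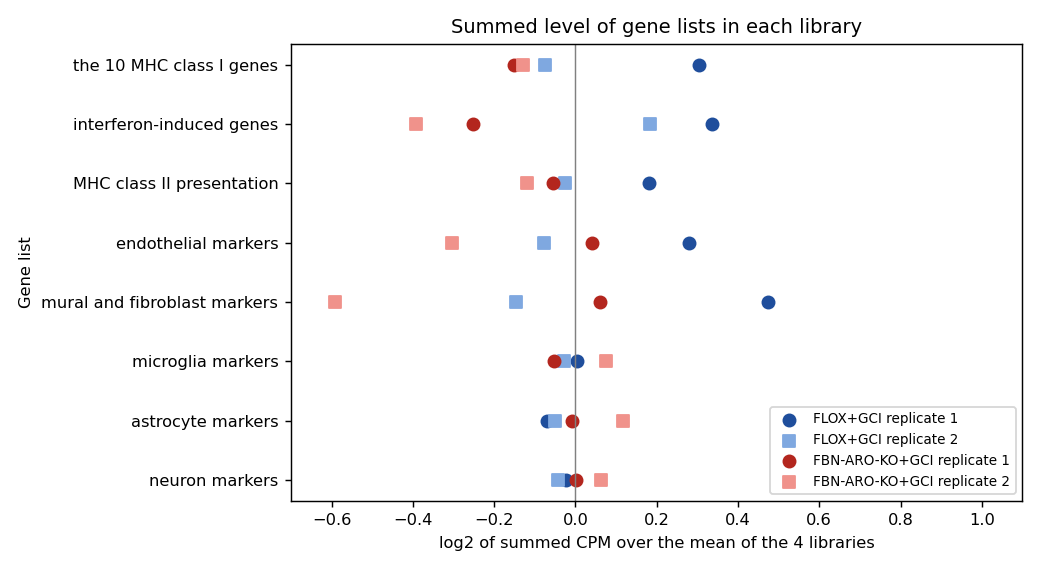
Summed CPM of 8 gene lists in each library, as log2 of the sum over its mean in the 4 libraries (blue, FLOX+GCI; red, FBN-ARO-KO+GCI; circles, replicate 1; squares, replicate 2). FLOX+GCI replicate 1 is highest for the first 5 lists, both FLOX+GCI sums lie above both FBN-ARO-KO+GCI sums for the first 3, and the microglial sums lie between 591 and 646 CPM.

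The libraries held 24333396 to 33076795 counts on genes. Cyp19a1 itself was counted 4 times and 1 time in the controls and 2 times in each knockout library, which does not allow a check of the deletion. Among 12734 other genes with a mean of at least 50 counts, the genes with a profile over the 4 libraries most like the mean of the class I set were Rasip1, Palm3, Vps37d, Ube2l6 and Renbp, by the root mean square difference of centered log2(CPM + 0.5), which was 0.011, 0.021, 0.024, 0.031 and 0.033. The mean profile itself was 0.37 and 0.01 in FLOX+GCI, against -0.15 and -0.23 in FBN-ARO-KO+GCI, around its mean on this log2 scale. Rasip1, the nearest, measured 9.82 and 7.55 CPM in FLOX+GCI, and 6.70 and 6.18 CPM in FBN-ARO-KO+GCI. With 4 libraries, such a likeness is a description only.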

How the data were processed

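Hippocampus RNA was sequenced as 50 nt single-end reads from TruSeq total RNA libraries. The authors aligned reads to mm9 with TopHat2 2.0.8b, per the submitters' processing notes, and deposited the counts that HTSeq gave for each gene symbol, with no normalization. The HTSeq version, strand setting and annotation release are not given in the sources used here. The 5 counters of unassigned reads were left out of library sizes. Of the sum of gene counts and counters, no feature took 7.96% to 8.70% and ambiguous reads 0.265% to 0.283%.

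Groups came from the labels. Genes passing edgeR's filterByExpr (minimum count 10) were compared with edgeR 4.0.16 (R 4.3.3) by the quasi-likelihood F test, with TMM scaling and Benjamini-Hochberg adjustment over all genes tested; the study used DESeq. SE is the log2 fold change over the square root of F. Transcript length, GC content and positions came from GENCODE M1 on NCBIM37, the build of mm9. The correction for GC content and length fits natural splines (5 degrees of freedom) to each library and enters edgeR as an offset.

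The genes and lists were chosen with earlier results of these data known. From each list outside the 10 genes, the text names up to 4 genes with the smallest unadjusted p under 0.05 and the most abundant gene; genes of marker lists are given as lists only. Other genes were named after their values were seen.

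Alternatives were DESeq2 1.42.0, other size factors, other count filters, the replicate number as a block, the GC and length correction, and each library left out. Within groups, chi-square per degree of freedom was 10.8 and 12.8, so that no library was a copy of another. On simulated counts with 200 genes changed 2-fold, the main test recovered 151 with 5 false calls among 14547 genes. With a GC trend added it made 117 false calls among 14504 genes, and 10 after the correction. The simulation gave all genes the same spread setting and changed only genes above a count limit. Each change was larger than any fitted to the 10 class I genes in all 4 libraries, so the share recovered does not apply to them.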

Additional observations from a re-analysis of the deposited data

How the results depend on the processing

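All 10 class I genes were lower in every alternative that tested them, except B2m, which turned to 0.20 without FLOX+GCI replicate 1 and to 0.05 without FBN-ARO-KO+GCI replicate 1; a filter on a mean of at least 50 counts left out Psmb9. Their median log2 fold change (-0.45) lay between -0.62 and -0.21 with a library left out. Class I genes with an unadjusted p under 0.05 in edgeR were all lower and numbered 4 (7.82% of the genes tested, lower). With library totals only they numbered 7, a count without its share over all genes tested, whose median log2 fold change was then -0.04. With the replicate block they numbered 8 (8.97% of the genes tested, lower). The GC and length correction left 0 such class I genes (4.61%), and so did the block with that correction (5.67%). Those with an adjusted p under 0.05 numbered 0, and 0 to 1 with a library left out; the 0 of DESeq2 says nothing on 9 of them, to which it gave no adjusted p. Over all genes tested, 2 passed the adjusted p, against 256 with DESeq2, 5 with every gene of at least 1 count, 184 with the block, 1 with the block and the correction, and 0 to 202 with a library left out. In the pathway and marker lists 1 gene passed, Xaf1, against 3 with DESeq2 (which gave Xaf1 no adjusted p), 14 with the block, 0 with the block and the correction, and 0 to 2 with a library left out. The cause was not tested. Across genes, libraries with the same number deviated from the group means with a correlation of 0.129, and with 2 pairs the replicate numbers were not shown to pair the samples. With a library left out, signs also turned in the range of the median of the class I-like genes (-0.65 to 0.050), of B2m (-0.27 to 0.20), of Fcgrt (-0.62 to 0.034) and of Ctss (-0.063 to 0.0035). Jak1 (0.08) was -0.017 with the correction, and -0.017 with the block and the correction.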
